A study of Homo sapiens with 2 samples.

Results

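The family of miR-28, miR-151 and miR-708 consists of microRNAs (miRNAs, short RNAs that guide silencing of messenger RNAs) whose hairpin genes are known to have arisen from copies of LINE2, an ancient transposable element. All entries of the deposited table whose precursor hairpin was hsa-mir-28, hsa-mir-151a, hsa-mir-151b or hsa-mir-708 were taken, which gave 8 of 2363 rows, 7 of 2042 mature names and 4 of 1600 precursors. The choice used names only and no measured value, although earlier results of these data were known when it was made. The samples were 2 small RNA libraries of hCMEC/D3, an immortalised clonal line of human brain microvascular endothelial cells used to model the blood-brain barrier. The libraries are numbered replicate 2 and replicate 8, carry no treatment, time point or genotype in their labels, and form 1 group. The labels do not say whether the replicates came from separate cultures, so differences between them may be technical.

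A miRNA hairpin is cut into a duplex with a 5p and a 3p arm, of which one arm is usually kept and loaded into an Argonaute protein. The loaded arm finds its targets mainly through its seed, bases 2 to 8 counted from the 5′ end, so arms of the same hairpin act on different messenger RNAs. Hairpins of this family fold from inverted LINE2 copies, and for that reason the 5p arm of one member can resemble the reverse complement of the 3p arm of another. The miR-151a hairpin is known for adenosine-to-inosine editing and lies within PTK2, the gene of focal adhesion kinase. The miR-708 arms have been linked to cell migration.

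The sequences at hand show how closely some of the members are related and whether those arms share a seed. The RefSeq sequences used here (GRCh38.p14) matched 3 of the 7 mature names and the mir-151b hairpin, while miR-28-5p, miR-151a-5p, miR-151a-3p and the mature miR-151b are named only. In the mature miRNAs the capitals mark the seed, and in the hairpin they mark the 7 bases AGGAGCU, which are the seed of miR-708-5p.
miR-28-3p: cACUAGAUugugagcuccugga
miR-708-3p: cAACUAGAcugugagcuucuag
miR-708-5p: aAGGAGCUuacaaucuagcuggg
mir-151b hairpin: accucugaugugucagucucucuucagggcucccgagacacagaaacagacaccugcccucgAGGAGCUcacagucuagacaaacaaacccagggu

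The 3p arms of miR-28 and miR-708 matched at 17 of 21 bases when miR-708-3p was shifted by 1 base, so their seeds overlapped but were not the same. The reverse complement of miR-28-3p matched miR-708-5p at 16 of 20 bases and the mir-151b hairpin at 18 of 22 bases, with an unbroken shared run of 11 bases in the hairpin. That of miR-708-3p matched the hairpin at 17 of 22 bases, with a longer run of 14. Read as written, miR-28-3p and miR-708-3p each matched the hairpin at 11 of 22 bases. In the hairpin the letters AGGAGCU began at base 63 of 96. These 7 bases, searched on the RNA strand as written, occurred in 8 of 2370 mature sequences searched (0.34%) and in 23 of 1562 hairpins (1.47%). Their reverse complement AGCUCCU stood in miR-28-3p from base 13 and occurred in 3 of the 2370 (0.13%). Among these sequences, which leave out the 4 members that are named only, miR-3139 was the 1 other miRNA with the seed of miR-708-5p, and it had 1 count in replicate 2 and 6 in replicate 8. None of the sequences searched shared the seed of miR-28-3p or of miR-708-3p. Whether any of the 4 members that are named only has the seed of miR-708-5p or of another member was not tested.

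In GRCh37, the genome build that the submitters' processing notes name as hg19, MIR28 lies on chromosome 3 at 188406569 to 188406654 on the plus strand. It is in introns of LPP, whose protein sits at cell adhesions: 8 LPP transcripts span it and 0 have an exon at this place. MIR708 lies on chromosome 11 at 79113066 to 79113153 on the minus strand, in introns of TENM4, a teneurin, on the same strand, with 3 spanning transcripts and no exon. MIR151B lies on chromosome 14 at 100575756 to 100575851 on the minus strand. It is opposite in strand to EVL, an actin regulator whose 8 spanning transcripts have no exon there. MIR151A was not located here.

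The labelled cell type was compared with miRNAs of known cell types. After repeated rows of one mature name were reduced to the row with the highest mean count, replicate 2 held 2721287 counts and replicate 8 held 2727675. Levels are given in CPM, counts scaled to 1000000 of these totals. The endothelial miR-126 arms summed to 110105 CPM in replicate 2 and 115735 CPM in replicate 8. The mural pair miR-143-3p and miR-145-5p summed to 835 and 393 CPM, and 6 epithelial miRNAs to 92.2 and 42.2 CPM. Of 4 blood miRNAs 3 had no count (miR-144-3p, miR-142-3p and miR-223-3p), miR-451a had 43 and 19 counts, and the neuronal miR-124-3p had 3 counts and 1 count. The part of other cell types in the family's values was not tested.

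All 7 mature names of the family were detected, defined as 10 or more counts in both libraries, against 26.6% of all mature names in the table. Together they held 94037 counts in replicate 2, or 3.46% of the total (95% Wilson interval 3.43 to 3.48). In replicate 8 they held 88193 counts, or 3.23% (3.21 to 3.25). These sums largely count the reads of miR-151a-5p again as miR-151b. Without miR-151b the share was 3.31% (3.29 to 3.33) in replicate 2 and 3.09% (3.07 to 3.11) in replicate 8. With miR-151b included the mean share was 3.34% ± 0.16 (SD, n = 2). Most of it came from a single arm, miR-151a-3p. Without molecular identifiers reads are not independent molecules, so all intervals and tests on counts cover counting error only. Adaptor ligation also favours some small RNAs over others, and this bears on comparisons of level among the members and between the arms of a hairpin.

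The 3p arm of miR-151a had 74740 counts in replicate 2 and 70542 in replicate 8, or 26663 ± 1134 CPM (SD, n = 2). It stood at rank 9 of 2042 mature names by mean level, at rank 8 in replicate 2 and at rank 9 in replicate 8. Its 5p arm had 4183 and 3921 counts, or 1487 ± 70.5 CPM, at rank 70. Both arms were well counted in either library, and the gap between the arms was far larger than the gap between the libraries.

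The name miR-151b appears in 2 rows. The row on hsa-mir-151a had 4168 counts in replicate 2 and 3911 in replicate 8, which is 15 and 10 counts below miR-151a-5p on the same hairpin. The row on its own hairpin, hsa-mir-151b, had 668 and 659 counts. In replicate 2 this was 16.0% of the other row (95% Wilson interval 14.9 to 17.2), and in replicate 8 it was 16.8% (15.7 to 18.1). The higher row is therefore not a measurement separate from miR-151a-5p, and the table does not give how many of the lower row's reads also fit hsa-mir-151a. On its own row miR-151b was at 244 ± 2.74 CPM (SD, n = 2), against 1483 ± 69.2 CPM on the higher row. With miR-151b left out, so that the reads of its higher row were counted once, the family held 3.20% ± 0.15 of counts (SD, n = 2). This also leaves out the row on hsa-mir-151b. With that row in place of the higher one, an alternative chosen after seeing the data, the share was 3.22%.

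The 3p arm of miR-28 had 8319 counts in replicate 2 and 7542 in replicate 8, or 2911 ± 206 CPM (SD, n = 2), at rank 42. The 5p arm had 2413 and 2120 counts, or 832 ± 77.4 CPM, at rank 92. For both arms replicate 2 was the higher library. The miR-708 arms were the lowest of the family. Its 5p arm had 176 counts in replicate 2 and 124 in replicate 8, or 55.1 ± 13.6 CPM, at rank 259. Its 3p arm had 38 and 33 counts, or 13.0 ± 1.32 CPM, at rank 398. These counts were low but well above the 3 counts, 1.10 CPM in either library, that a count of 0 would allow.

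**Figure D1:**
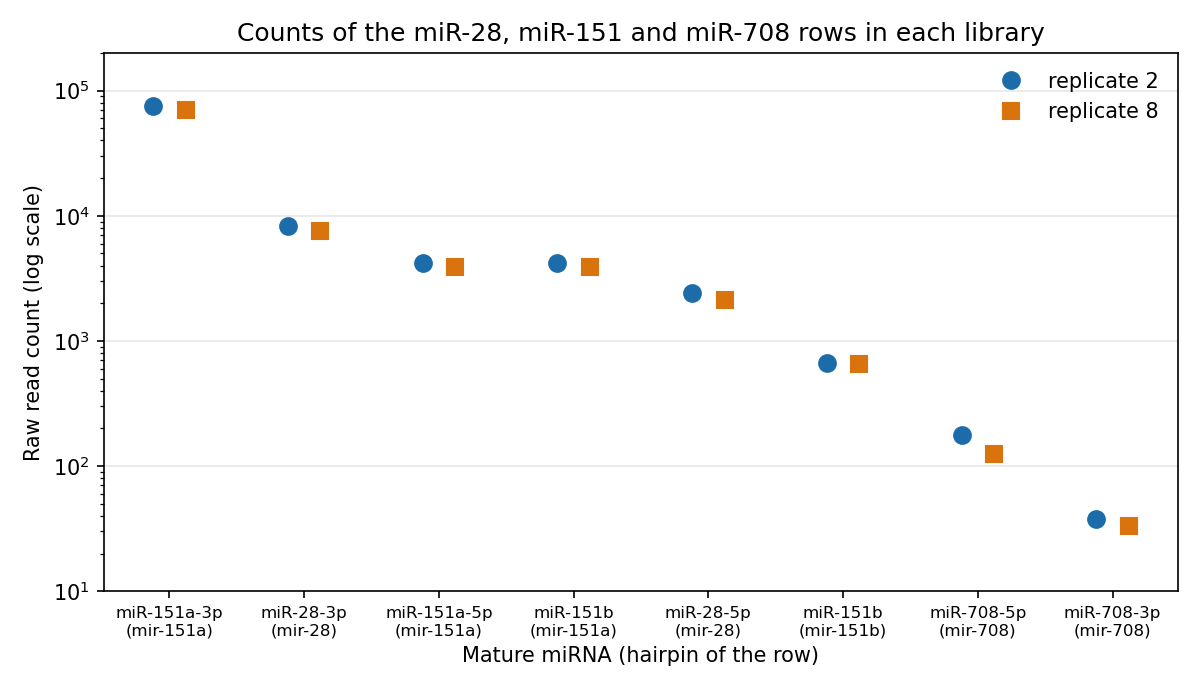
Raw read counts (vertical axis, log scale) of the 8 rows of the family in replicate 2 (circles) and replicate 8 (squares), with the hairpin of each row in parentheses. The symbols of the libraries lie close together in every row, while the rows span from 33 to 74740 counts, and the miR-151b row on mir-151a sits level with miR-151a-5p.

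The order of levels was miR-151a-3p, miR-28-3p, miR-151a-5p with miR-151b, miR-28-5p, miR-708-5p and miR-708-3p, and it was the same in both libraries. Neighbours in this order lay farther apart than their SDs, apart from miR-151a-5p and miR-151b. In replicate 2 miR-151a-3p had 8.98 times the counts of miR-28-3p, and in replicate 8 it had 9.35 times. Among the 5p arms the span was smaller: miR-151a-5p had 1.73 and 1.85 times the counts of miR-28-5p. The related 5p arm of miR-708 was far lower, with miR-28-5p at 13.7 times its counts in replicate 2 and 17.1 times in replicate 8.

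**Figure D2:**
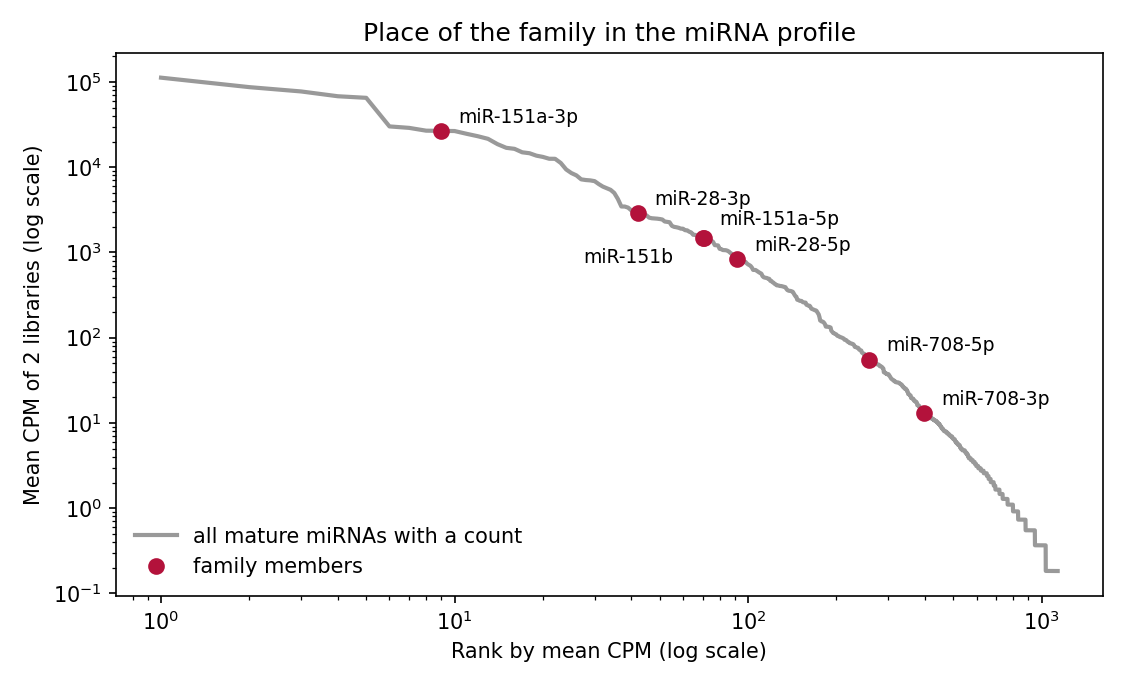
Mean CPM of the 2 libraries (vertical axis, log scale) against rank (horizontal axis, log scale) for all mature miRNAs with a count (line), with the family as points. The members spread from rank 9 to rank 398, with miR-151a-3p at 26663 CPM and miR-708-3p at 13.0 CPM.

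Summed per precursor, with the miR-151b row on hsa-mir-151a left out, hsa-mir-151a gave 87.4% ± 0.35 of the family's counts (SD, n = 2). In replicate 2 hsa-mir-28 gave 11.9% (95% Wilson interval 11.6 to 12.1), against 11.4% (11.2 to 11.6) in replicate 8. For hsa-mir-151b it was 0.74% and 0.78%, and for hsa-mir-708 0.24% (0.21 to 0.27) and 0.18% (0.16 to 0.22). These shares do not depend on how the libraries are scaled. The composition of the family was nearly the same in both libraries, but the intervals did not overlap for hsa-mir-28 or for hsa-mir-151a. The latter gave 87.2% in replicate 2 (87.0 to 87.4) against 87.7% in replicate 8 (87.4 to 87.9). These precursors gave nearly all of the family's counts, so a lower share of one is a higher share of the other and both describe a single difference.

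The split of counts between the arms of a hairpin differed between the members. The 5p arm of mir-151a took 5.30% of the hairpin's counts in replicate 2 (95% Wilson interval 5.15 to 5.46). Its share in replicate 8 was 5.27% (5.11 to 5.43). For mir-28 the 5p share was 22.5% (21.7 to 23.3) and 21.9% (21.1 to 22.8), so the 3p arm had 3.45 and 3.56 times the counts of the 5p arm. In mir-708 the 5p arm was the more abundant one, with 82.2% (76.6 to 86.8) and 79.0% (72.0 to 84.6). The intervals of the 3 hairpins did not overlap in either library. The hairpin mir-151b has 1 listed arm and gives no such share.

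The 5p shares were compared between the libraries over all 212 hairpins that list both arms and whose arms summed to 50 counts or more in replicate 2 and in replicate 8. Repeated rows were not reduced here, so hairpins that give the same mature arm share counts and are not independent entries. By Fisher's exact test, two-sided and with Benjamini-Hochberg adjustment over these hairpins, 18.9% had an adjusted p under 0.05. None of the 3 family hairpins was among them. For mir-151a the share in replicate 8 minus that in replicate 2 was -0.034 percentage points (95% Newcombe interval -0.26 to 0.19, Fisher's exact adjusted p = 1). The difference was -0.54 points for mir-28 (-1.68 to 0.60, Fisher's exact adjusted p = 0.69). It was -3.26 points for mir-708 (-11.6 to 4.74, Fisher's exact adjusted p = 0.82), where 214 and 157 counts leave a wide interval. The median absolute difference over the 212 hairpins was 0.76 points, and 172 hairpins differed by more than mir-151a.

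The less abundant arm held 5.28% of the counts of mir-151a, 22.2% of mir-28 and 19.1% of mir-708, summed over both libraries. The median over the 212 hairpins was 3.50%, and 39 hairpins had a larger share in the less abundant arm than mir-28 and 49 than mir-708. In 44.8% of the hairpins the 3p arm was the more abundant one, as in mir-28 and mir-151a.

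**Figure D3:**
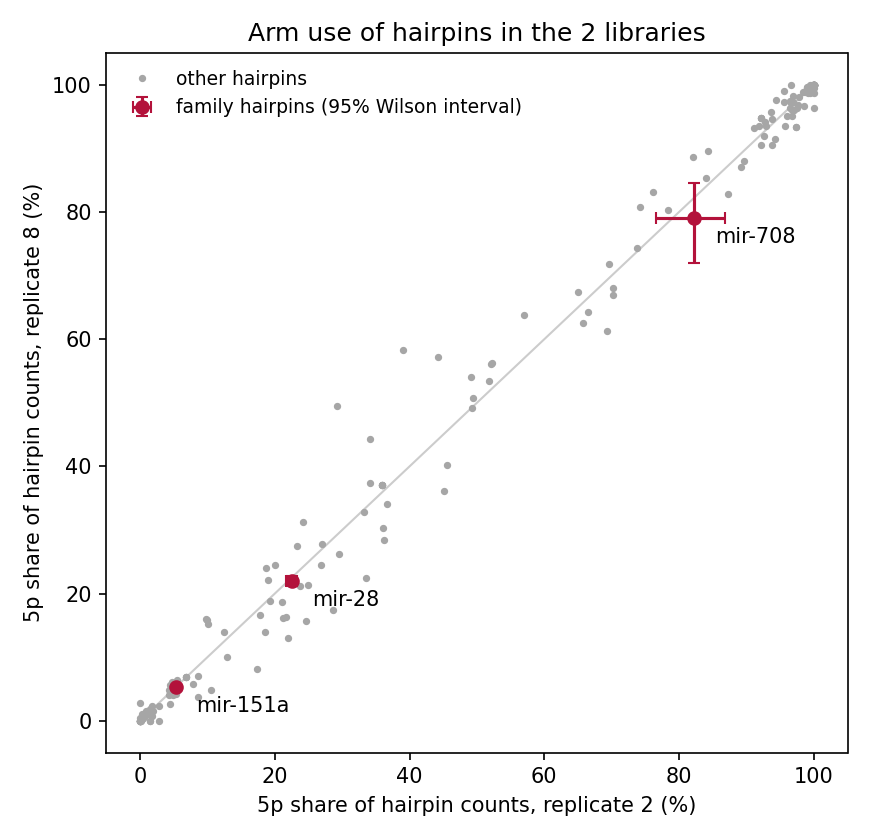
The 5p share of each hairpin's counts in replicate 2 (horizontal axis, %) against replicate 8 (vertical axis, %) for 212 hairpins, with 95% Wilson intervals on the family's 3 hairpins. The grey line marks equal shares, and mir-151a, mir-28 and mir-708 lie on it or within their intervals, at mean 5p shares of 5.28%, 22.2% and 80.6%.

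Levels were then compared between the libraries. An exact binomial test on total counts, two-sided and adjusted over 695 miRNAs with at least 10 summed counts, compares 2 libraries by counting error and not conditions. It called 34.2% of all miRNAs, 23.5% as lower and 10.8% as higher in replicate 8, and of the 367 with at least 100 summed counts it called 54.8%. In the family 6 of 7 mature names were called, all lower in replicate 8, and miR-151a-5p and miR-151b among them are largely the same reads. With miR-151b taken from its own hairpin row, an alternative chosen after seeing the data, 5 names were called, and the ratio of miR-151b was -0.023 on the log2 scale (interval -0.18 to 0.13, exact binomial adjusted p = 0.90). These calls depended on the scaling. When TMM set the library sizes 3 names were called, miR-28-3p, miR-28-5p and miR-708-5p, and with DESeq2 size factors 0 were called, against 32.2% of all miRNAs under either scaling. Of these 7 names, 3 had an unadjusted binomial p under 0.05 with DESeq2 size factors. The share of all miRNAs under that unadjusted threshold was not counted, and it is at least the 32.2% called after adjustment. The 3 names therefore show no excess in the family.

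On total counts the log2 ratio of replicate 8 over replicate 2 was -0.087 for miR-151a-3p (95% interval -0.10 to -0.072, exact binomial adjusted p = 4.0e-29). With TMM it was -2.5e-05 and with DESeq2 size factors it was above 0, at 0.016. For miR-28-3p the ratio was -0.14 (-0.19 to -0.10, exact binomial adjusted p = 2.4e-09), and with DESeq2 size factors it was -0.043 (adjusted p = 0.16). For miR-28-5p it was -0.19 (-0.27 to -0.11, exact binomial adjusted p = 5.9e-05), and with DESeq2 size factors -0.088 (adjusted p = 0.11). Each scaling shifted every log2 ratio by the same amount, 0.087 for TMM and 0.10 for DESeq2 size factors. Whether a ratio kept its sign therefore followed from its size on total counts. The miR-28 arms stayed below 0, while the miR-151 names were above 0 with DESeq2 size factors. With those factors the 95% interval was -0.088 to 0.0026 for miR-28-3p and -0.17 to -0.0031 for miR-28-5p. For miR-151a-3p it was 0.00065 to 0.030 (exact binomial adjusted p = 0.11).

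The largest ratio of the family was that of miR-708-5p, at -0.51 (-0.85 to -0.17, exact binomial adjusted p = 0.0097). It was -0.42 with TMM (adjusted p = 0.041) and -0.40 with DESeq2 size factors (adjusted p = 0.054). Its partner miR-708-3p had a ratio of -0.20 (-0.93 to 0.50, exact binomial adjusted p = 0.71), so a difference was not detectable at this depth. The median log2 ratio of the 7 names was -0.14, with the reads of miR-151a-5p largely counted again as miR-151b. It was -0.11 over all 695 miRNAs tested. Over the 367 miRNAs with at least 100 summed counts, which leave out miR-708-3p, it was -0.095, and 62.1% of them were below 0. Of those 367, 298 had a larger absolute ratio than miR-151a-3p, 251 than miR-28-3p and 66 than miR-708-5p.

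**Figure D4:**
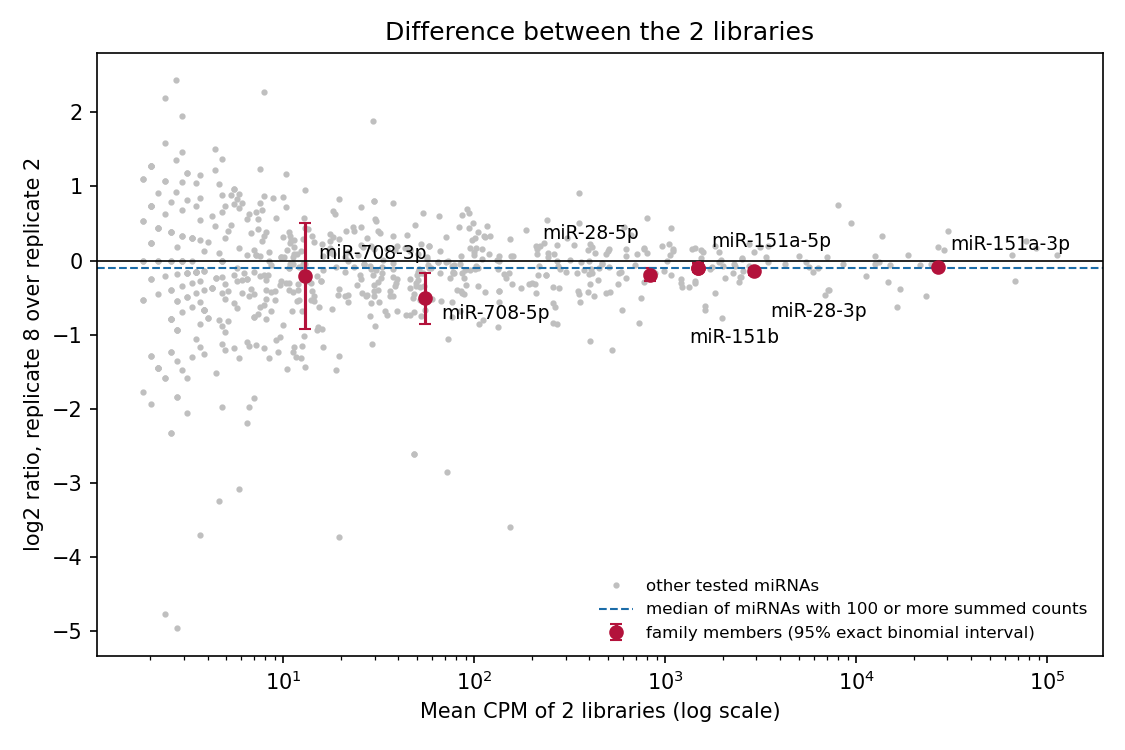
Log2 ratio of replicate 8 over replicate 2 on total counts (vertical axis) against mean CPM (horizontal axis, log scale) for 695 miRNAs, with 95% exact binomial intervals on the family. The dashed line is the median of -0.095 over miRNAs with at least 100 summed counts. The miR-151 names lie close to this line, and miR-708-5p is the farthest below it at -0.51.

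Each arm was also placed among the miRNAs nearest to it in level, by the distance of log2(CPM + 1) over the 2 libraries. With 2 libraries this likeness describes level only. The nearest to miR-151a-3p were miR-423-3p at 26554 CPM, let-7b-5p at 24621 CPM and miR-30a-5p at 26811 CPM. For miR-28-3p they were miR-93-5p at 2829 CPM, miR-186-5p at 2735 CPM and miR-452-5p at 2920 CPM. The nearest to miR-151a-5p and to miR-151b were miR-16-5p, miR-941 and miR-17-5p, between 1431 and 1540 CPM. For miR-28-5p they were miR-339-3p, miR-574-3p and miR-30e-5p, between 791 and 877 CPM. The arm miR-708-5p had miR-4658, miR-1271-5p and miR-338-5p beside it, between 51.6 and 55.1 CPM. For miR-708-3p they were miR-363-3p, miR-485-3p and miR-378a-5p, between 12.7 and 13.4 CPM.

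Other miRNAs described as overlapping LINE2 elements were lower than the miR-151a and miR-28 arms, and some were above the miR-708 arms. Of 12 mature names from 8 such precursors, 5 were detected, against 26.6% of all mature names in the table. The 12 summed to 304 CPM in replicate 2 and 390 CPM in replicate 8. The highest was miR-421, with 376 and 461 counts or 154 ± 21.8 CPM (SD, n = 2). It was followed by miR-493-3p with 221 and 315 counts or 98.3 ± 24.2 CPM, and by miR-95 with 132 and 155 counts or 52.7 ± 5.88 CPM. The level of miR-493-5p was 23.1 ± 5.15 CPM and that of miR-374a-5p 12.7 ± 0.28 CPM, close to miR-708-3p. The names miR-325, miR-545-5p and miR-578 were at 0 counts, where the depth leaves room for levels up to 1.10 CPM. Of 7 names with enough counts to test, 2 were called, miR-421 and miR-493-3p, both higher in replicate 8 on total counts, against 34.2% of all miRNAs called in either direction and 10.8% called higher. Their log2 ratios were 0.29 and 0.51 (exact binomial adjusted p = 0.013 and 0.00032). Of the 7, 0 were called lower, against 23.5% of all miRNAs, and with 7 names this is too few to read as a difference. All 12 names were below miR-28-5p, and most of the family's counts came from the hairpins of miR-151a and miR-28.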

How the data were processed

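The authors deposited 1 table of raw counts per mature miRNA and precursor for both libraries, with RPM values that per the file headers belong to the same columns. The deposited RPM values equalled counts divided by 3180045 in replicate 2 and 3205752 in replicate 8, and were not used further. The submitters' processing notes name CASAVA 1.9, FastQC, cutadapt, Bowtie 0.12.7 and hg19. The counter and the miRBase release are not given in the sources used here.

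The members and lists were chosen with earlier results of these data known. For levels and ratios, repeated rows of a mature name were reduced to the one with the highest mean count, which decides the level of miR-151b. For arm shares every hairpin was kept. There was 1 group, so conditions could not be compared. Libraries were compared with exact binomial tests (counts) and Fisher's exact tests (arms), in scipy 1.17.1, calling an adjusted p (Benjamini-Hochberg) under 0.05, and ratios had 0.5 counts added. Both tests were run on simulated counts that varied by counting error only, for Fisher's test with unchanged arm shares only. These runs do not cover libraries that vary more than by counting error. Alternative scalings used edgeR 4.0.16 (TMM) and DESeq2 1.42.0. Named miRNAs were the members, the 3 nearest in level to each, miRNAs sharing a seed, detected LINE2 miRNAs and cell type markers; undetected LINE2 names with no count were added after their values were seen. Positions are from GENCODE on GRCh37.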

Additional observations from a re-analysis of the deposited data

How the results depend on the processing

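Repeated rows and the denominator moved the family's share of counts from 3.34%: it was 2.89% with repeated rows summed or all rows kept as deposited, and 3.77% with miR-126-3p removed from the total, shifts that follow from the construction. Leaving out 1 library gave 3.23% to 3.46%, which with 2 libraries lies within 1 SD by construction, and taking miR-151b from its own hairpin, an alternative chosen after seeing the data, gave 3.22%. With at least 100 counts in both libraries 6 names were detected. TMM sizes raised every log2 ratio by 0.087 and DESeq2 size factors by 0.10. The family names called between the libraries went from 6 to 3 with TMM sizes and to 0 with DESeq2 size factors, while over all miRNAs 224 were called with either, against 238. Of the calls over all miRNAs, 31.5% were higher in replicate 8 on total counts, 46.9% with TMM and 49.6% with DESeq2 size factors. Ratios changed sign with DESeq2 size factors for miR-151a-3p (0.016), miR-151a-5p (0.0056) and miR-151b (0.0071). Hairpins with a different 5p share numbered 40, 44 with a minimum of 10 counts and 34 with 500, where mir-708 could not be tested. No paired analysis was possible because there is 1 group. Depth limits miR-708 most, with at most 176 counts for an arm.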
